A study of Mus musculus with 6 samples.

Results

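The genes described here act in the synthesis, uptake and efflux of cholesterol or regulate these steps, and were measured in the mouse mammary gland. They were chosen by name: 35 genes of the pathway were listed, and 32 of them had at least 1 probe set annotated to that gene alone, out of 18193 genes named on the array. Each gene is shown by its probe set with the highest mean over all 6 arrays. Acat2, which makes acetoacetyl-CoA, Nr1h2, the second liver X receptor (LXR), and Soat1, which esterifies cholesterol for storage, were not analysed here. Of the 32 measured genes, 17 act in synthesis, 5 in its regulation, 5 in uptake and transfer inside the cell, and 5 in efflux and the lipoproteins that carry cholesterol away.

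RNA came from whole mammary glands of virgin female FVB/N mice aged 4 months. Of the 6 glands, 3 were from Caveolin-3 knockout mice (Cav-3KO) and 3 from wild-type mice (WT), each read on 1 single-colour array. The labels do not say whether the glands came from separate animals, so p-values measure the spread between these samples, which may be partly technical. In a whole gland, fewer cells of a type and less RNA per cell cannot be told apart. The probe set of Cav3, the gene knocked out, read 4.76, 4.83 and 4.72 on the log2 scale in Cav-3KO and 4.79, 5.02 and 4.74 in WT, so it did not check the genotypes. The labels do not say whether it lies in the deleted stretch. Array medians lay between 5.77 and 5.8.

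Cells make cholesterol from acetyl-CoA through mevalonate, farnesyl diphosphate, squalene and lanosterol. The membrane-bound transcription factor SREBP2, encoded by Srebf2, raises the genes of this route when sterols are low: its escort protein Scap carries it to the Golgi for cleavage, and the Insig proteins hold both back in the endoplasmic reticulum when sterols are high. LXRs sense oxidised sterols and raise genes of efflux, among them Abca1, Abcg1 and Apoe. Mammary epithelium, adipocytes and macrophages all handle cholesterol, and milk fat globules carry it in their membrane.

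The sterol element bound by SREBP2 was searched as TCACNCCAC only. Its usual neighbours were searched as CCAAT, bound by NF-Y, and GGGCGG, bound by Sp1. All were searched on both strands of the 250 bases upstream of each RefSeq start (GRCm38.p6). Windows were found for 24 of the 32 genes, 33 windows in all. The synthesis genes Fdps, Fdft1 and Sqle had no window and were not searched. The same holds for Npc1, Scarb1, Stard4, Abcg1 and Apoc1. TCACNCCAC was present in 1 of the 33 windows (3.03%), that of Hmgcs1, against 1.05% of all 32851 windows. CCAAT was present in 14 of 17 windows of synthesis genes (82.4%), against 33.8% of all windows, and GGGCGG likewise in 14 of 17, against 32.7%. The stretches printed here run 5′ to 3′ on the strand of the gene. They show the only window with the sterol motif, the 3 lower synthesis genes with the smallest p among those whose window held CCAAT, and Insig1, the feedback regulator. Capitals mark TCACNCCAC or CCAAT, which reads ATTGG on the opposite strand, and the matches shown do not overlap. The Hmgcs1 stretch is chr13:119690104-119690320 on the plus strand, and its sterol match starts at position -137 from the start of the gene. Msmo1 is chr8:64733619-64733748 on the minus strand and holds 3 CCAAT matches. Nsdhl is chrX:72918402-72918515 on the plus strand and holds 2. Sc5d is chr9:42264310-42264369 on the minus strand and Insig1 chr5:28071162-28071221 on the plus strand, with 1 match each.
Hmgcs1: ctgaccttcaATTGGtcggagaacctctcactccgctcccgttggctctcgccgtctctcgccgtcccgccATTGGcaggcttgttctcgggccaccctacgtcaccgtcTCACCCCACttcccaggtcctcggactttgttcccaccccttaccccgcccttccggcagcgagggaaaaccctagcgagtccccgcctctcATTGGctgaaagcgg
Msmo1: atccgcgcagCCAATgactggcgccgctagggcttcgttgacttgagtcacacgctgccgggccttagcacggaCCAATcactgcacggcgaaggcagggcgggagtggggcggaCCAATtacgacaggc
Nsdhl: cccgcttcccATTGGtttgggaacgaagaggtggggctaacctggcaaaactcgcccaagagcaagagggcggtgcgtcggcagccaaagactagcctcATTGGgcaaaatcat
Sc5d: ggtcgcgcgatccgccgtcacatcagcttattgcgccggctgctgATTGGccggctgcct
Insig1: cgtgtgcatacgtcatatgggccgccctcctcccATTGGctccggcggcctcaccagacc
A match is a run of letters and was not tested as a binding site. Other forms of the sterol element and bases further away were not searched, so a window without a match may still belong to a gene with an SREBP2 site. CCAAT was present upstream of every synthesis gene with a window, lower or not. It was present for Mvd, Ebp and Hsd17b7, with 2, 2 and 3 matches, and for Hmgcs1, Mvk, Idi1, Dhcr7 and Tm7sf2. These synthesis genes were not lower in Cav-3KO by the test below.

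Several synthesis genes were lower in Cav-3KO glands, most of them after farnesyl diphosphate. Of 17 measured enzymes 7 fell and 0 rose, by limma with p adjusted over all probe sets: Pmvk, Fdft1, Lss, Cyp51, Msmo1, Nsdhl and Sc5d. That is 41.2% of the enzymes, where 8.51% of all 18193 genes fell and 7.65% rose. The median log2 difference of the enzymes was -0.44, beside -0.01 over all genes. In 10 of the 17 every Cav-3KO array lay below every WT array (58.8%, against 19.8% of all genes), and in 0 every one lay above (18.5% of all genes). The enzymes all had means at percentile 71.4 or above of all probe sets, while the count over all genes includes dim ones. They were also chosen with earlier results of these data known. The 7 that fell were 1.82 to 2.18-fold lower. The plot of all genes in pathway order shows these differences with their intervals.

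**Figure D1:**
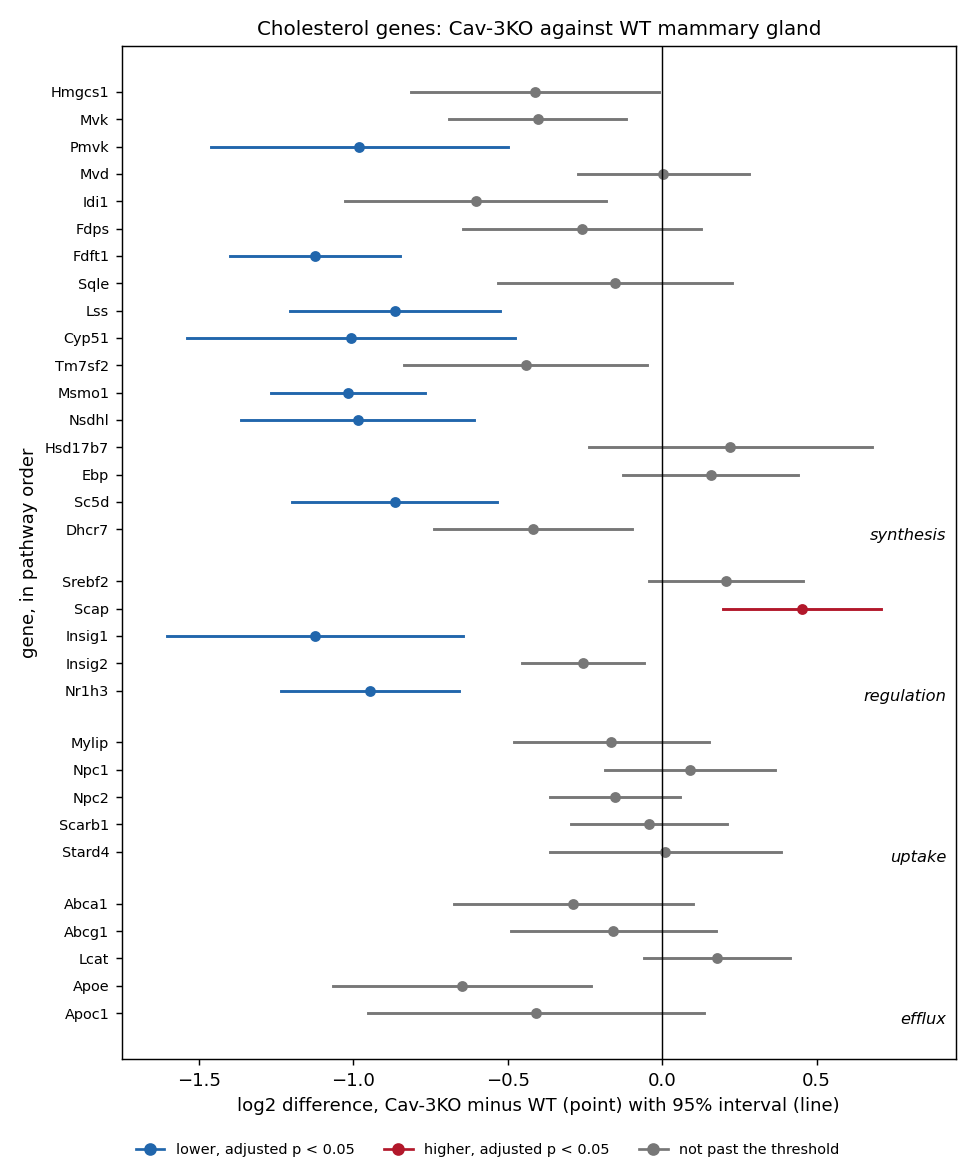
Log2 difference between Cav-3KO and WT glands for each of the 32 genes, in pathway order from top to bottom. Points are the limma estimate (3 arrays against 3), lines the 95% interval, and colour shows the adjusted p. The lower genes lie among the enzymes and the regulators Insig1 and Nr1h3, Scap is the 1 higher gene, and the uptake genes all span 0.

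In the first part of the route, from acetyl units to farnesyl diphosphate, 1 of 6 enzymes fell (16.7%, beside 8.51% of all genes). Pmvk, the phosphomevalonate kinase, had log2 values of 8.87, 8.37 and 8.81 in Cav-3KO and 9.31, 10.06 and 9.62 in WT. The groups did not overlap, and the difference was -0.98 ± 0.21 (SE, adjusted p = 0.0224). Mvk, the mevalonate kinase one step earlier, differed by -0.40 ± 0.12 (adjusted p = 0.0732), and Idi1, the isomerase that readies isoprene units for joining, by -0.60 ± 0.18 (adjusted p = 0.0710). In both the groups also did not overlap. A dimmer Idi1 probe set did pass, at -0.85 ± 0.22 (adjusted p = 0.0439). Hmgcs1, the synthase that makes hydroxymethylglutaryl-CoA early in the route and whose upstream stretch holds the sterol motif, read 11.52, 10.97 and 11.16 in Cav-3KO and 11.34, 11.75 and 11.79 in WT. Cav-3KO 1 lay above WT 1, and the difference of -0.41 ± 0.17 did not pass (adjusted p = 0.170, 95% interval -0.81 to -0.01). Its other 4 probe sets gave -0.25 to -0.68, none past the threshold. Mvd, the decarboxylase between Pmvk and Idi1, differed by 0.00 with an interval of -0.27 to 0.28, and Fdps, which joins the units to farnesyl diphosphate, by -0.26 (-0.64 to 0.13).

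The steps that commit farnesyl diphosphate to sterols held 2 of the 7 enzymes that fell, out of 3 measured (66.7%, beside 8.51% of all genes). Fdft1, the squalene synthase at that branch point, had log2 values of 9.40, 9.23 and 9.32 in Cav-3KO and 10.43, 10.65 and 10.25 in WT. Every knockout array was well below every WT array, and the difference was -1.12 ± 0.12 (adjusted p = 0.00227), 2.18-fold lower. A second probe set gave -1.02 ± 0.14 and passed as well, while 2 dim sets read 0.11 and 0.20 and did not. Lss, which cyclises squalene epoxide to lanosterol, had 8.48, 8.28 and 8.51 in Cav-3KO and 9.04, 9.59 and 9.26 in WT, again without overlap (-0.87 ± 0.15, adjusted p = 0.0109). The other Lss probe sets gave -0.66 ± 0.22 and -0.40 ± 0.13 and did not pass (adjusted p = 0.0934 and 0.0781). Sqle, the epoxidase between Fdft1 and Lss, differed by -0.15 ± 0.16 with overlapping groups (95% interval -0.53 to 0.23, adjusted p = 0.614). The intervals of Sqle and Fdft1 do not meet, but the difference between genes was not tested, here or for the pairs below.

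From lanosterol to cholesterol 4 of 8 enzymes fell (50%, beside 8.51% of all genes). Cyp51, the demethylase that acts on lanosterol, had log2 values of 7.48, 7.17 and 7.59 in Cav-3KO and 8.09, 8.96 and 8.20 in WT. WT 2 was the highest of these, as it was for Pmvk, Fdft1 and Lss, and the difference was -1.01 ± 0.23 (adjusted p = 0.0287). A dimmer Cyp51 probe set passed at -1.23 ± 0.27, and the dimmest, at -0.46 ± 0.19, did not (adjusted p = 0.168). Msmo1, the sterol methyl oxidase, had 8.38, 8.41 and 8.19 in Cav-3KO and 9.33, 9.21 and 9.49 in WT, with close replicates and no overlap (-1.02 ± 0.11, adjusted p = 0.00222). The other Msmo1 probe set, a dim one, read -0.11 ± 0.09 and did not pass (adjusted p = 0.532). Nsdhl, the dehydrogenase that follows Msmo1 in removing the same methyl groups, had 9.55, 9.01 and 9.44 in Cav-3KO and 10.10, 10.50 and 10.36 in WT (-0.99 ± 0.16, adjusted p = 0.00989). Hsd17b7, the ketoreductase that completes that removal, overlapped between the groups: it read 7.77, 8.23 and 8.54 in Cav-3KO and 7.76, 8.17 and 7.94 in WT. Its difference was 0.22 ± 0.20, and its interval of -0.24 to 0.68 does not meet that of Nsdhl, -1.36 to -0.61. The other Hsd17b7 probe sets read 0.04, -0.13 and 0.14, none past the threshold.

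Sc5d, the desaturase near the end of the route, had log2 values of 8.83, 8.80 and 8.71 in Cav-3KO and 9.34, 9.71 and 9.90 in WT. All 3 of its probe sets were lower past the threshold, at -0.87 ± 0.14, -0.81 ± 0.12 and -0.60 ± 0.12. Ebp, the isomerase just before it, differed by 0.16 with an interval of -0.13 to 0.44. Dhcr7, the reductase that makes cholesterol in the last step, differed by -0.42 ± 0.14 without overlap (adjusted p = 0.0921), and Tm7sf2, a sterol reductase acting after Cyp51, by -0.44 ± 0.17 (adjusted p = 0.135). Enzymes that fell thus stood beside Hsd17b7 and Ebp, whose intervals include 0.

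**Figure D2:**
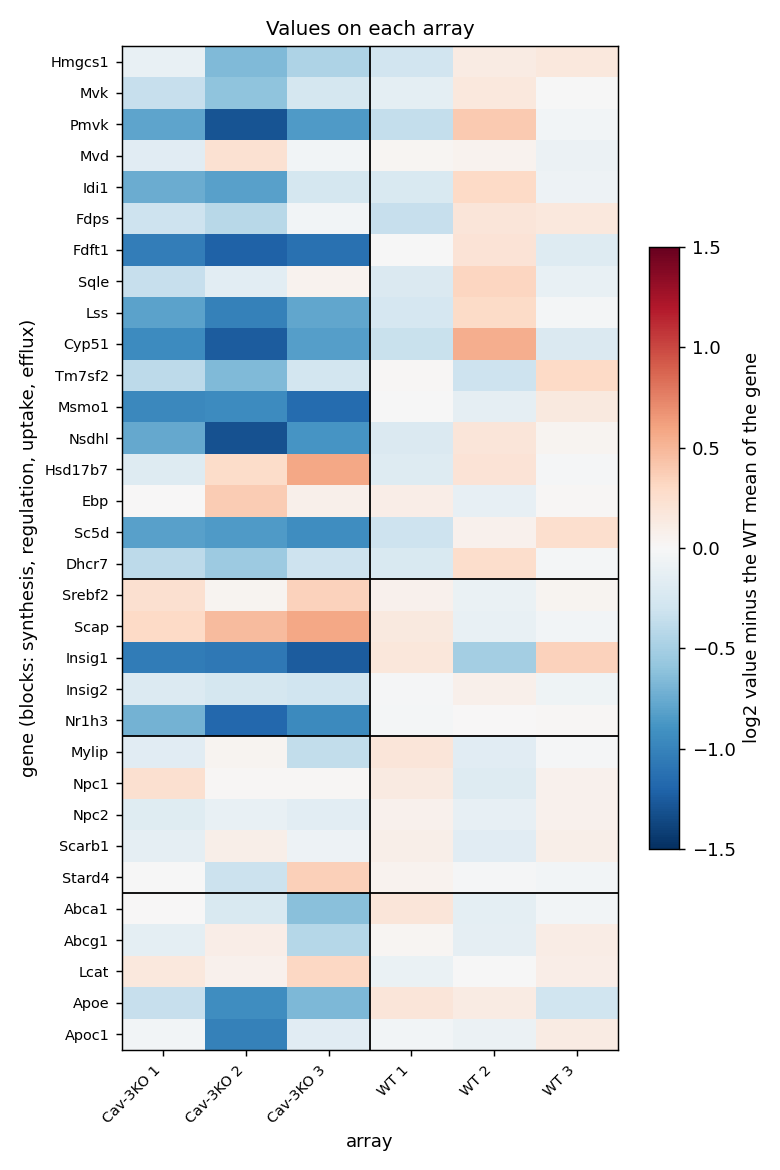
Log2 value of each gene on each array minus the WT mean of that gene, with the 3 Cav-3KO arrays left of the 3 WT arrays and lines between synthesis, regulation, uptake and efflux. Fdft1, Lss, Cyp51, Msmo1, Nsdhl, Sc5d, Insig1 and Nr1h3 are low on all 3 Cav-3KO arrays, while the uptake block is pale throughout.

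Of the 10 genes called, 6 stayed past the threshold whichever array was left out: Fdft1, Lss, Msmo1, Nsdhl, Sc5d and Nr1h3. Pmvk lost its call without Cav-3KO 3, WT 2 or WT 3 (adjusted p up to 0.0681), Cyp51 without any one Cav-3KO array or without WT 3 (up to 0.0686), and Lss when probe sets that can match several transcripts were set aside (0.0934).

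The regulators moved in both directions. Of 5 measured, 2 were lower, Insig1 and Nr1h3 (40%, beside 8.51% of all genes), and 1 was higher, Scap (20%, beside 7.65%). Insig1, which holds SREBP2 back and is itself raised by SREBP2, had log2 values of 8.72, 8.69 and 8.53 in Cav-3KO and 9.94, 9.25 and 10.11 in WT. All 3 knockout arrays lay below the lowest WT array, WT 2, and the difference was -1.12 ± 0.21 (adjusted p = 0.0143), 2.18-fold lower. Its relative Insig2 had 8.25, 8.19 and 8.16 in Cav-3KO and 8.44, 8.53 and 8.39 in WT, a difference of -0.26 ± 0.08 that did not pass (adjusted p = 0.0916). The 95% intervals of Insig1 and Insig2, -1.60 to -0.64 and -0.45 to -0.06, do not meet. Of the other 2 Insig2 probe sets, 1 read -0.35 and 1 read 0.02.

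Scap, the escort of SREBP2, had log2 values of 10.05, 10.22 and 10.33 in Cav-3KO and 9.89, 9.64 and 9.71 in WT. It rose by 0.45 ± 0.11 (adjusted p = 0.0369), 1.37-fold, and was the 1 gene of the 32 to rise (3.12%, beside 7.65% of all genes). A dimmer Scap probe set read 0.31 ± 0.13 and did not pass (adjusted p = 0.163). Srebf2 itself read 8.80, 8.60 and 8.90 in Cav-3KO and 8.63, 8.45 and 8.59 in WT, with Cav-3KO 2 inside the WT range (0.21 ± 0.11, adjusted p = 0.262). The 95% interval of Srebf2, -0.04 to 0.46, includes 0, and its other probe set read 0.03 ± 0.10 (adjusted p = 0.890). Srebf2 thus did not pass the test in either direction on arrays where 7 of the enzymes were lower. Scap lost its call without Cav-3KO 2, Cav-3KO 3, WT 2 or WT 3 (adjusted p up to 0.122), and Insig1 without Cav-3KO 3 (0.0603).

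Nr1h3, which encodes the LXR of adipocytes, macrophages and liver, had log2 values of 8.17, 7.70 and 7.93 in Cav-3KO and 8.85, 8.89 and 8.90 in WT. The WT arrays lay close together and above all knockout arrays, and the difference was -0.95 ± 0.12 (adjusted p = 0.00466), 1.93-fold lower. Among 14 measured genes known as LXR targets, a list that contains Nr1h3, Abca1, Abcg1, Mylip, Apoe and Apoc1, 2 were lower and 0 higher (14.3%, beside 8.51% of all genes), with a median of -0.29. The 14.3% counts Nr1h3 itself, so it is not a result about the other targets. Among those only Lpl was lower, the lipase that frees fatty acids from lipoproteins, at -0.33 ± 0.08 (adjusted p = 0.0409). Pltp, the phospholipid transfer protein, came next at -0.53 ± 0.15 (adjusted p = 0.0550).

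The 5 uptake and transfer genes measured showed no change past the test: 0 of 5 by limma (16.2% of all genes were called), and 0 at an unadjusted p under 0.05. The lipoprotein receptor Vldlr, lower by the same test, is counted in another list below. Their differences ran from -0.17 to 0.09. Npc2, a lysosomal protein that hands cholesterol to Npc1, had log2 values of 12.76, 12.83 and 12.79 in Cav-3KO and 13.01, 12.82 and 13.004 in WT, with WT 2 among the knockout values (-0.15 ± 0.09). Mylip, a ligase that marks lipoprotein receptors for breakdown, had 11.38, 11.59 and 11.18 in Cav-3KO and 11.73, 11.38 and 11.53 in WT. Npc1, which exports cholesterol from lysosomes, had 7.09, 6.86 and 6.86 in Cav-3KO and 6.97, 6.65 and 6.91 in WT. All these groups overlapped, and the 95% intervals, -0.36 to 0.06 for Npc2, -0.48 to 0.15 for Mylip and -0.18 to 0.36 for Npc1, leave room for changes of up to those sizes. Scarb1, the receptor for high-density lipoprotein, differed by -0.04 (-0.29 to 0.21) and Stard4, a carrier of sterols between membranes, by 0.01 (-0.36 to 0.38). A dimmer Npc2 probe set, 1 of 4, was lower past the threshold at -0.55 ± 0.10 (adjusted p = 0.0119).

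Efflux and lipoprotein genes had a lower median, -0.29, with 0 of 5 past the test by limma (16.2% of all genes were called) and 1 at an unadjusted p under 0.05. The median was -0.43 without Cav-3KO 1 and -0.12 without Cav-3KO 3. The gene under that p was Apoe, the apolipoprotein made by adipocytes and macrophages, with log2 values of 11.89, 11.30 and 11.55 in Cav-3KO and 12.41, 12.35 and 11.93 in WT. The groups did not overlap, but Cav-3KO 1 and WT 3 were only a small step apart, and the difference of -0.65 ± 0.18 missed the threshold (adjusted p = 0.0553). Apoc1, its neighbour on chromosome 7, had 8.82, 7.85 and 8.69 in Cav-3KO and 8.82, 8.78 and 8.99 in WT. Cav-3KO 2 alone was far below the rest, and the difference was -0.41 ± 0.24 (adjusted p = 0.314). Lcat, which esterifies cholesterol on lipoproteins in plasma, had 5.03, 4.94 and 5.19 in Cav-3KO and 4.78, 4.87 and 4.98 in WT (0.18 ± 0.10), with a mean at percentile 38.8 of all probe sets. Abca1 and Abcg1, the transporters that load cholesterol onto lipoproteins, differed by -0.29 (95% interval -0.67 to 0.10) and -0.16 (-0.49 to 0.18).

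**Figure D3:**
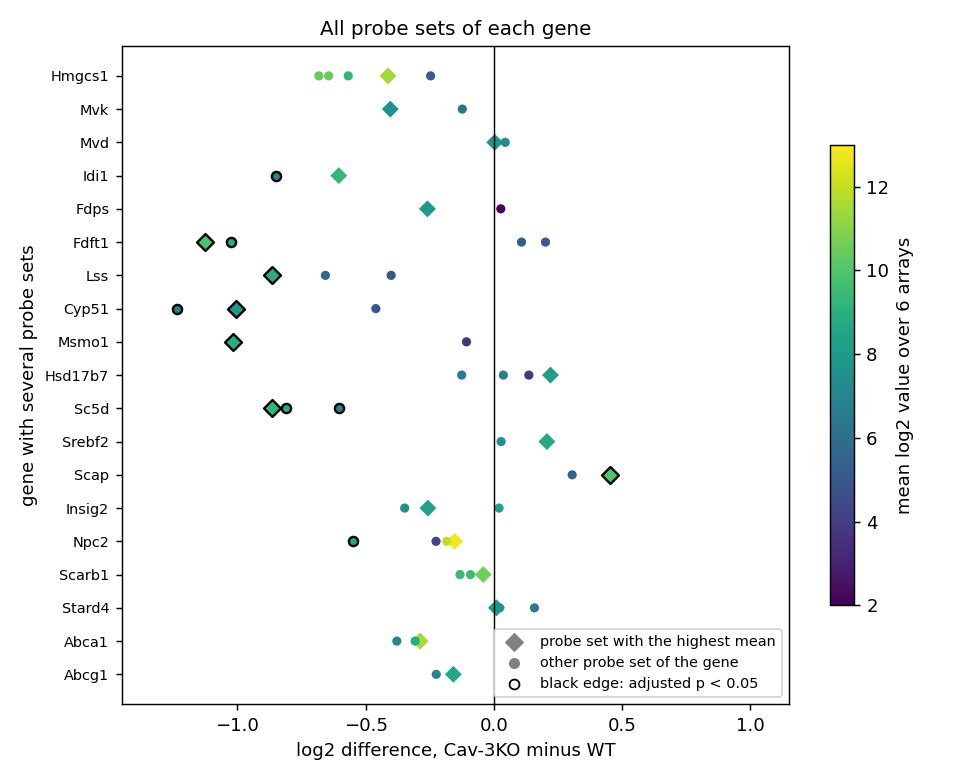
Log2 difference between Cav-3KO and WT glands for every probe set of the 19 genes that have more than 1. Diamonds are the sets with the highest mean, which stand for the gene in the text, circles the others, fill colour the mean log2 value and a black edge adjusted p under 0.05. All sets of Cyp51, Lss and Sc5d lie below 0, while 2 dim sets of Fdft1 lie above 0, across from its diamond.

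The rest of the sterol network was measured through lists of other genes. Of 30 further genes of sterol uptake, transfer, sensing and breakdown, 5 were lower (16.7%, beside 8.51% of all genes) and 0 higher (7.65% of all genes), with a median of -0.09. The one furthest from 0 was Lipa, the lysosomal lipase that frees cholesterol from its esters, at 0.87 ± 0.30 (adjusted p = 0.104), with every Cav-3KO array above every WT array but not past the threshold. The smallest p among them belonged to Cyp27a1, which oxidises cholesterol to an LXR ligand (-0.81 ± 0.10, adjusted p = 0.00397), Vldlr, a lipoprotein receptor (-0.71 ± 0.10, adjusted p = 0.00509), and Pgrmc1, a haem protein that binds Cyp51 and related enzymes (-0.45 ± 0.09, adjusted p = 0.0212). In the branch that turns the same isoprene units to prenyl groups, dolichol and ubiquinone, 1 of 11 genes was higher and 0 lower. That is 9.09% higher, beside 7.65% of all genes, and the median was 0.02. The higher one was Pggt1b, a subunit of a prenyl transferase (0.38 ± 0.09, adjusted p = 0.0302), and Fntb (0.30 ± 0.10) and Pdss2 (-0.31 ± 0.10) did not pass.

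Fatty acid synthesis genes were lower on the same arrays. Of 14 genes of the SREBP1 and ChREBP programme 11 were lower (78.6%, beside 8.51% of all genes) and 0 higher (7.65% of all genes). Their median was -0.95, beside -0.44 for the cholesterol enzymes, a difference that was not tested. Mlxipl, which encodes ChREBP, differed by -1.60 ± 0.20, Acacb, a carboxylase that makes malonyl-CoA, by -1.11 ± 0.15 and Thrsp, a lipogenic protein of fat, by -0.66 ± 0.10 on the log2 scale. Srebf1, which encodes SREBP1, was not past the threshold (-0.30 ± 0.18, adjusted p = 0.354).

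Markers of several cell types differed between the same arrays, where 8.51% of all genes were lower and 7.65% higher. The mean of 12 white adipocyte genes lay between 10.62 and 10.95 in Cav-3KO and between 11.33 and 11.64 in WT. Of these genes 8 were lower (66.7%), among them Pparg (-1.11 ± 0.13), Retn (-0.78 ± 0.10) and Cidec (-0.68 ± 0.11), and 0 were higher. The 7 brown adipocyte genes had means of 6.75 to 6.87 in Cav-3KO and 7.998 to 9.27 in WT, with 4 lower (57.1%). The mean of 12 luminal epithelial genes lay between 10.06 and 10.18 in Cav-3KO and between 8.63 and 9.17 in WT, with 10 higher (83.3%). For basal epithelium it was 9.29 to 9.46 in Cav-3KO and 8.41 to 8.55 in WT, with 6 of 7 higher (85.7%). The 12 macrophage genes averaged 9.35 to 9.44 in Cav-3KO and 9.52 to 9.84 in WT, with 2 lower (16.7%). The mean change was -0.70 for white adipocytes, 1.26 for luminal epithelium and -0.27 for macrophages. Beside these, the mean of the 17 cholesterol enzymes, set against the WT mean of each gene, was -0.54, -0.64 and -0.44 in Cav-3KO 1 to 3 and -0.18, 0.16 and 0.02 in WT 1 to 3. The part of cell composition in the cholesterol results was not tested.

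**Figure D4:**
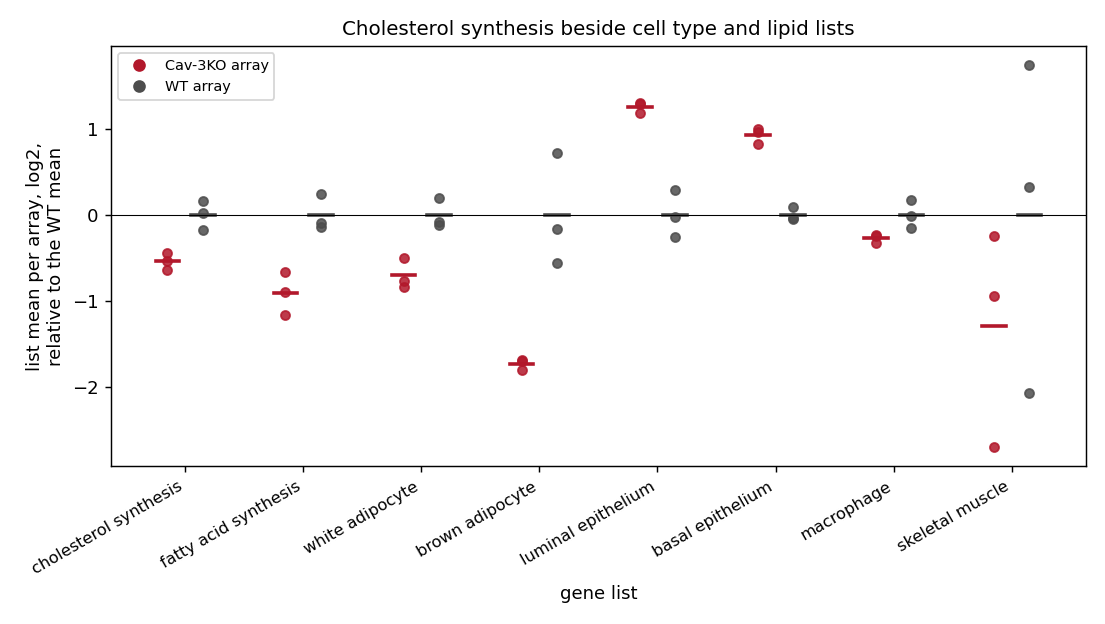
Mean log2 value of each gene list per array, relative to its WT mean, with Cav-3KO points left of WT points and bars at the group mean of 3 arrays. Cholesterol synthesis, fatty acid synthesis and both adipocyte lists lie lower on all Cav-3KO arrays, both epithelial lists lie higher, and skeletal muscle varies within each genotype.

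Lymphocyte markers also differed: the mean of 6 genes lay between 7.27 and 7.43 in Cav-3KO and between 7.85 and 8.23 in WT. The change was -0.61, with 5 lower (83.3%, beside 8.51% of all genes) and 0 higher. Skeletal muscle varied within the groups. The mean of its 9 genes was 5.38, 7.13 and 7.82 in Cav-3KO and 8.40, 9.81 and 6.01 in WT, so the arrays overlapped and 0 genes passed by limma (0 at an unadjusted p under 0.05). Of 6 endothelial genes 2 were lower (33.3%), and of 7 fibroblast genes 1 was lower (14.3%), beside 8.51% of all genes. With the muscle mean as a covariate, 7 of the 32 cholesterol genes were lower in place of 9, and Pmvk (adjusted p = 0.0604) and Cyp51 (0.0715) were the lower ones lost, as was the higher Scap (0.0597).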

How the data were processed

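Messenger RNA of 6 mammary glands was measured on Affymetrix arrays, 3 Cav-3KO and 3 WT, grouped by sample title. The deposited values are log2 values, 1 per probe set and array, for which the submitters' processing notes name RMA, with no version in the sources used here. RMA aligns the arrays by quantiles and compresses folds of dim probe sets. Array number limits the precision.

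Of 45101 probe sets, 64 controls were left out and 45037 tested. Probe sets with 1 symbol in the platform annotation (34945) were named, and symbols were updated through Entrez numbers with a RefSeq table (GRCm38.p6). 932 sets with several symbols and 9160 not listed there stayed unnamed. The genotypes were compared by lmFit and eBayes of limma 3.58.1 (R 4.3.3; genotype as the only term, two-sided), with Benjamini-Hochberg adjustment over all tested sets and a threshold of 0.05. Differences are Cav-3KO minus WT with the moderated standard error. The fit was tested on simulated data. No 2 arrays were identical.

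The members and lists were chosen with earlier results of these data known, so no list has a p of its own. Values per array are given for genes past the threshold and, in a step with fewer than 3 of these, for the 3 with the smallest p, and for some others (Hmgcs1, Hsd17b7, Insig2 and Srebf2) chosen after their values were seen. The 3 genes with the smallest p were to be named for each other list, and for several marker lists only counts are given. Promoters were to be shown for lower synthesis genes with the sterol motif. None of those with a window had it, so Hmgcs1, 3 lower enzymes with CCAAT and Insig1 are shown. Figures were drawn with matplotlib 3.10.9. Alternatives were median centring, cyclic loess, another variance prior, leaving out dim sets, each array left out, the replicate number as a block, other probe set rules, other thresholds and a muscle covariate.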

Additional observations from a re-analysis of the deposited data

How the results depend on the processing

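The number of the 32 genes called lower was 9, and lay between 7 and 9 with any 1 array left out, between 7 and 11 under the other normalizations, filter, priors, probe set rules, block and covariate, and at 4 and 14 with thresholds of 0.01 and 0.10. Synthesis genes called lower were 7, with 5 to 7 when an array was left out and 3 at the threshold of 0.01. The 1 higher gene, Scap, dropped to 0 with the replicate block, the muscle covariate and the threshold of 0.01, and to between 0 and 1 with an array left out. Over all genes, 1549 were lower and 1392 higher. These were 421 and 446 at the threshold of 0.01, and 2152 were higher at 0.10. With an array left out they ranged from 606 to 1463 and from 629 to 1718. The median of the efflux genes, -0.29, ran from -0.43 to -0.12 with an array left out, and the cause of these changes was not tested. Of 448 values of single genes under alternatives, 414 kept sign and side of the threshold, 17 lost the call, 8 gained it and 9 took the opposite sign. The 9 belong to Mvd, Stard4, Scarb1, Sqle and Npc1, and the median of the uptake genes ran from -0.13 to 0.0050. Without Cav-3KO or WT arrays in turn, Mvd ranged from -0.11 to 0.092, Stard4 from -0.16 to 0.18, Scarb1 from -0.13 to 0.0050, Sqle from -0.26 to 0.011 and Npc1 from -0.0084 to 0.155, and with the muscle covariate Npc1 was -0.0027. Apoe gained its call in 5 alternatives, Idi1 in 2 and Tm7sf2 in 1, the replicate block.

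The labels do not say whether replicate numbers in the titles pair the samples. The deviations of same-numbered arrays correlated at -0.05, 0.19 and -0.02, and not every array correlated best with its own number. With 3 arrays a group these correlations cannot exclude pairing. With the replicate block 11 of the 32 genes were lower and 0 higher, 8 of them in synthesis, while the differences themselves cannot move under the block in this balanced design. The filter on dim sets removed none of the 32 genes. With 3 arrays a group, changes of the uptake and efflux genes smaller than their intervals were not detectable here.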
